A study of Mus musculus with 8 samples.

Results

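The genes examined here are 9 genes of heat-producing (thermogenic) and beige fat, taken by symbol from the 16505 genes of an expression table: the uncoupling proteins Ucp1, Ucp2 and Ucp3, the deiodinase Dio2, the proton channel Otop1, the regulators Prdm16 and Ebf2, the potassium channel Kcnk3 and the lipid droplet protein Cidea. All 9 were in the table. The RNA came from epididymal white adipose tissue, the fat pad beside the epididymis, of C57BL/6 mice fed a high fat diet for 12 weeks. One group was 4 wild-type (WT) mice and the other 4 mice with a Mir181 double knockout, called the knockout here and DKO in the plots. The labels do not say which miR-181 loci were deleted, nor give the age, litter or housing of the mice, so p-values measure only the spread between these 8 samples. The study asked how this microRNA family bears on adipose inflammation and obesity, and the comparison here is knockout against WT, both on the same diet.

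Brown fat cells burn lipid to make heat. Noradrenaline acts on beta-adrenergic receptors, cyclic AMP rises, and Ucp1 in the inner mitochondrial membrane lets protons return without making ATP. Beige cells are fat cells in white depots that can take up this programme, under regulators such as Prdm16 and Ebf2, and epididymal fat is known as a depot that does so poorly. Thyroid hormone, activated inside the cell by the Dio2 enzyme, strengthens the response.

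A microRNA pairs through its seed, bases 2 to 8, with matching sites in messenger RNAs. The mature miR-181 microRNAs in RefSeq (build GRCm38.p6) are shown because the study deleted members of this family, and capitals mark the seed that all 4 share. The sequences are given 5′ to 3′.
miR-181a: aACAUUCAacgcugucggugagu
miR-181b: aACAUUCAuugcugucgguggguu
miR-181c: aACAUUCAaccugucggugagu
miR-181d: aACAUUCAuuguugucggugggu

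Among the 9 genes, Dio2 alone held the matching letters TGAATGT in its longest annotated 3′ UTR (GENCODE mouse release M21). Of the 12870 tested genes with such a UTR, 18.5% held a match. The Dio2 UTR, at 4860 bases, was long beside the median of 1184 bases over those genes. It held 2 matches, starting at bases 2887 and 3162 of the UTR, and both were followed by A, the 8-base form TGAATGTA that 6.14% of genes held. They are printed in capitals with the bases around them.
Dio2, first match: aatgacttcctTGAATGTagagcctgccc
Dio2, second match: ttccctttgtgTGAATGTatttgactctt

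A match describes letters and not a site in use. The 250 bases before the RefSeq start of Dio2 (GRCm38.p6, chr12:90739039-90739288, minus strand) are shown because this gene fell so strongly in the knockout and because the stretch holds a full cyclic AMP response element, TGACGTCA, in capitals.
Dio2 promoter: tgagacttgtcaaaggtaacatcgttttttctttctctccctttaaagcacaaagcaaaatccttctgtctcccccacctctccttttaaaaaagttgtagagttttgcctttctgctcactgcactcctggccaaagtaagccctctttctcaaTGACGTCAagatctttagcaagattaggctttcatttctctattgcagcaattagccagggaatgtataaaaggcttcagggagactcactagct

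The element began 95 bases before the start. Searched on both strands, it occurred in 1.55% of 32851 promoter windows of this length. Of the 6 genes with a window in the table (Dio2, Otop1, Prdm16, Ucp1, Ucp2 and Ucp3), the other 5 did not hold these letters there.

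Values below are log2 CPM, reads scaled to the size of their library on a log2 scale, with 0.5 read added to each count. Library totals ran from 3736881 to 76838584 reads. Ribosomal RNA took over 1% of reads in WT replicates 1, 3 and 4 and knockout replicate 1 and at most 0.334% in the other 4 libraries. Epididymis markers took over 1% in WT replicate 2 and knockout replicates 2 and 4. The difference of each of the 9 genes, but of few other genes, is also given within the ribosomal RNA classes. The high class held 3 WT libraries and 1 knockout library and the low class 1 and 3, so that these values, high class first, have no error. All 15 fat cell markers had reads in every library. They took 1.82% to 2.99% of reads in WT and 4.27% to 7.05% in knockout, and 13 of the 15 rose with a list median of 2.02. All 15 macrophage and leukocyte markers fell, from 1.05% to 1.19% of reads in WT to 0.174% to 0.267% in knockout, with a median of −2.40. In bulk tissue, fewer cells of a type and less RNA per cell cannot be told apart.

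Of the 9 genes, 8 passed the filter on low values (a mean of at least 0 log2 CPM) and were tested with limma among 13797 genes. Ucp3 and Kcnk3 were higher in the knockout, Ucp2, Dio2 and Otop1 were lower, and Prdm16, Ebf2 and Cidea did not pass the threshold of an adjusted p under 0.05. Over all tested genes 38.8% passed, 22.7% upward and 16.1% downward. The same 5 members had groups that did not overlap, 2 of them higher and 3 lower, where 37.4% of all tested genes did not overlap (20.8% higher and 16.6% lower). The median difference of the 8 tested members was 0.56, against 0.18 over all tested genes. The members moved in both directions, and the 2 largest differences were falls.

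**Figure D1:**
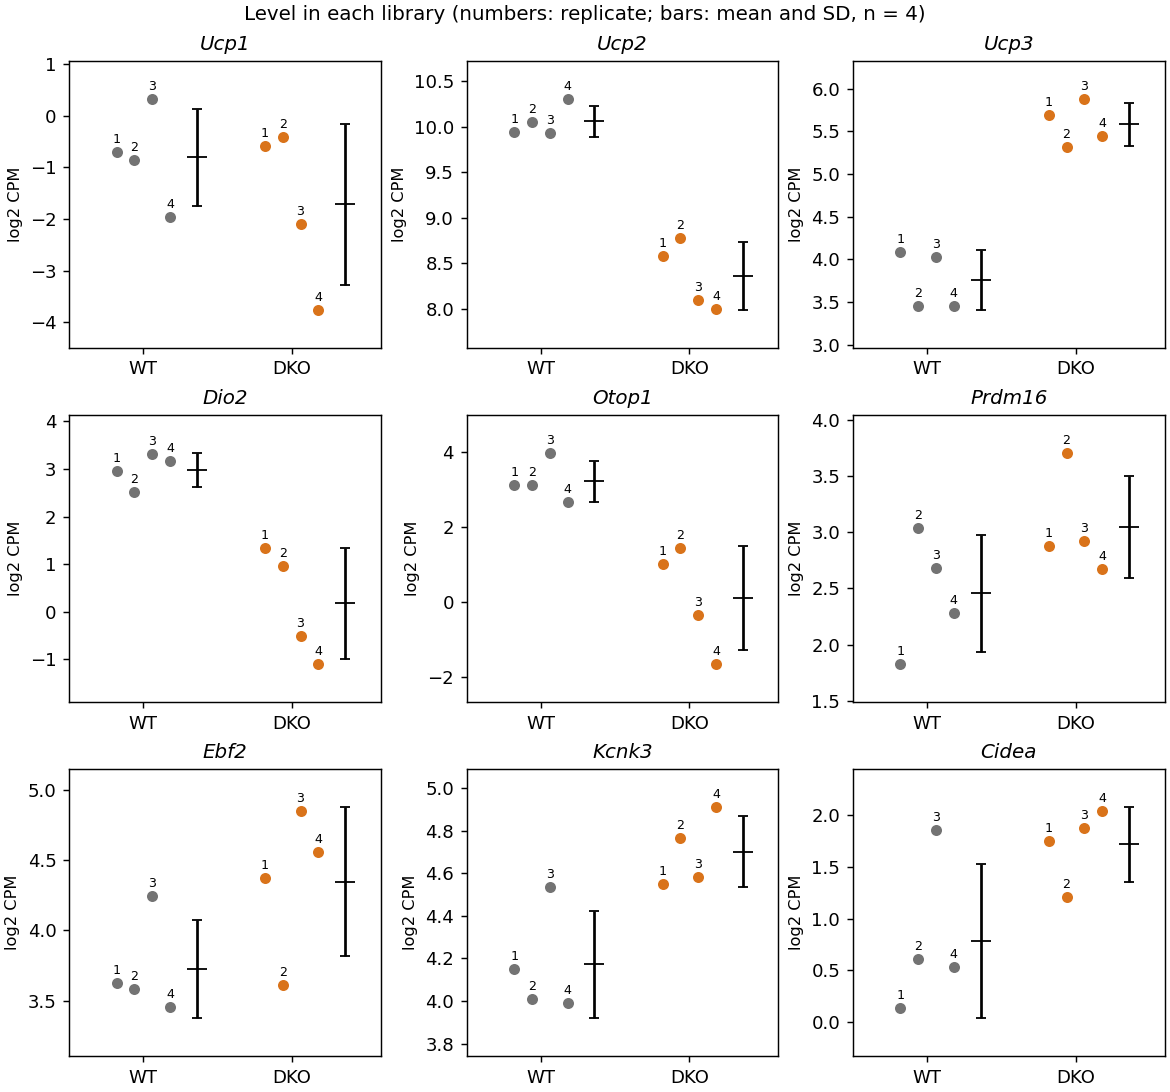
Log2 CPM (y axis) of the 9 genes in each library, 4 WT (grey) and 4 knockout (orange, DKO), numbered by replicate, with the group mean and SD as bars. Ucp2, Dio2 and Otop1 lie lower in all 4 knockout libraries, Ucp3 and Kcnk3 lie higher, and the other 4 genes overlap.

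The 3 uncoupling proteins did 3 different things. Ucp1, the proton carrier that defines brown and active beige fat, was near the limit of detection and lay under the filter. It stood at −0.71, −0.86, 0.32 and −1.97 log2 CPM in WT replicates 1 to 4, which rest on 2, 8, 8 and 1 reads. In knockout replicates 1 to 4 it stood at −0.58, −0.42, −2.10 and −3.76, from 2, 57, 8 and 1 reads. The groups overlapped, and WT replicate 4 and knockout replicate 4 were the lowest of their groups. With no filter the difference was −0.91 ± 0.85 (SE; limma adjusted p = 0.435), and a change of Ucp1 in either direction was not detectable at this depth. Its mean level was above that of only 8.07% of the genes in the table. Left-out libraries moved the Ucp1 difference from −1.34 (without knockout replicate 2) to −0.23 (without knockout replicate 4), and within the ribosomal RNA classes it was 0.20 and −1.23.

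Ucp2, a relative of Ucp1 that is widely expressed and abundant in leukocytes, was the most abundant of the 9 genes and fell. It stood at 9.94, 10.06, 9.93 and 10.31 in WT and at 8.58, 8.77, 8.10 and 8.0 in knockout. Every knockout library was more than 1 log2 unit under every WT library. The change was −1.70 ± 0.19 (SE; limma adjusted p = 0.000249), a 3.24-fold lower level, and −1.48 and −1.77 within the classes. Beside it, the macrophage and leukocyte markers named above fell in 15 of 15 cases by a median of 2.40 log2 units. Their part in the fall of Ucp2 was not tested.

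Ucp3, the uncoupling protein best known from skeletal muscle and brown fat, rose. It stood at 4.09, 3.45, 4.02 and 3.46 in WT and at 5.69, 5.31, 5.88 and 5.44 in knockout, with no overlap. The change was 1.83 ± 0.20 (SE; limma adjusted p = 0.000197), a 3.55-fold higher level, with 1.84 and 2.09 within the classes. The rise was close in size to the median of the fat cell markers, 2.02. Of 15 skeletal muscle markers 14 were in the table, and together they took 0.00152% to 0.00227% of reads in WT and 0.00298% to 0.0101% in knockout. The myosin heavy chains Myh1, Myh2 and Myh4 and the creatine kinase Ckm each had 0 reads in at least 1 library. Of the 14, only 4 were tested, of which 1 rose, 0 fell and 3 did not pass, with a list median of 0.48. Acta1 and Actn3 lay above that median, while the other tested muscle markers had lower means in the knockout and did not pass. The skeletal actin Acta1 rose by 2.01 ± 0.35 (limma adjusted p = 0.00209), a size near that of Ucp3. Actn3, the fast-fibre actinin, differed by 1.30 ± 0.46 with no overlap (adjusted p = 0.05005). Actn3 passed without knockout replicate 1 or 2 (adjusted p = 0.0419 and 0.0384). In knockout replicate 3, where Ucp3 was highest at 58.8 CPM, the 14 muscle markers together reached 29.8 CPM, and in knockout replicate 4 Ucp3 stood at 43.5 CPM beside 101 CPM of muscle markers. In knockout replicates 1 and 2 the same sum was 42.5 and 37.5 CPM, beside 51.6 and 39.7 CPM of Ucp3. The part of muscle RNA in the rise of Ucp3 was not tested.

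Ucp2 and Ucp3 are next to each other on chromosome 7 in the RefSeq annotation, and in these libraries they changed in opposite directions. The difference between the 2 changes was not tested as such, but both lay outside the spread of either group. Of 5 related mitochondrial carriers listed, the dicarboxylate carrier Slc25a10 was higher by 0.51 ± 0.18 (limma adjusted p = 0.0493) with overlapping groups. It lost its call without any single library other than WT replicate 3 and knockout replicate 4 (adjusted p of 0.0859 to 0.134) and with median centring (0.36, adjusted p = 0.179). The oxoglutarate carrier Slc25a11 differed by 0.19 ± 0.21 (adjusted p = 0.484), and by −0.11 with the ribosomal RNA class as covariate. Slc25a14, Slc25a27 and Slc25a30 (also called Ucp5, Ucp4 and Kmcp1) did not pass either. The differences of these 3 were −0.19 ± 0.42, 0.71 ± 0.37 and −0.52 ± 0.23 (limma adjusted p = 0.736, 0.154 and 0.102), and that of Slc25a14 turned to 0.23 without knockout replicate 1. Slc25a27 passed without knockout replicate 1 (1.04, limma adjusted p = 0.0152) and Slc25a30 without knockout replicate 2 (−0.70, adjusted p = 0.0243).

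Dio2 encodes the type 2 deiodinase, which turns the prohormone thyroxine into active triiodothyronine inside the cell and is strongly induced in stimulated brown fat. It fell in the knockout. Dio2 stood at 2.95, 2.51, 3.31 and 3.16 in WT and at 1.35, 0.97, −0.51 and −1.10 in knockout. The WT libraries were close together, while knockout replicates 3 and 4 lay well under knockout replicates 1 and 2. The change was −2.80 ± 0.54 (SE; limma adjusted p = 0.0036), a 6.99-fold lower level, and −1.79 and −2.72 within the classes. Only 1.78% of tested genes had a larger difference in either direction. The knockout values of Dio2 rest on 9, 150, 25 and 9 reads, so the size is less precise than the direction, and it was −1.99 on a log2(CPM + 1) scale. This is the gene whose 3′ UTR and promoter letters are printed above, the sole member with a match to the miR-181 seed. Whether these letters bear on the level of Dio2 was not tested.

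Otop1, a proton channel of the cell surface reported both in brown fat and in the inflamed white fat of obese mice, showed the largest difference of the 8. It stood at 3.12, 3.13, 3.97 and 2.67 in WT and at 1.01, 1.43, −0.35 and −1.65 in knockout. As with Dio2, knockout replicates 3 and 4 were the lowest libraries, and no knockout library reached the WT range. Those 2 libraries also held more red blood cell RNA, 0.172% and 0.548% of reads against 0.0115% to 0.0348% in the other 6. Fat progenitor and fibroblast markers, of which 5 of 12 fell and 1 rose, took 0.984% to 1.31% of reads in WT and 0.398% to 0.638% in knockout, lowest in knockout replicates 4 and 3. No progenitor marker was at 0 in any library, and the part of these cells, like that of the leukocytes, in the falls of Dio2 and Otop1 was not tested. The change was −3.11 ± 0.64 (SE; limma adjusted p = 0.0051), an 8.65-fold lower level, and −2.25 and −3.31 within the classes. Knockout reads were 7, 207, 28 and 6, and on the log2(CPM + 1) scale the change was −2.21. The relatives Otop2 and Otop3 had no row in the table.

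**Figure D2:**
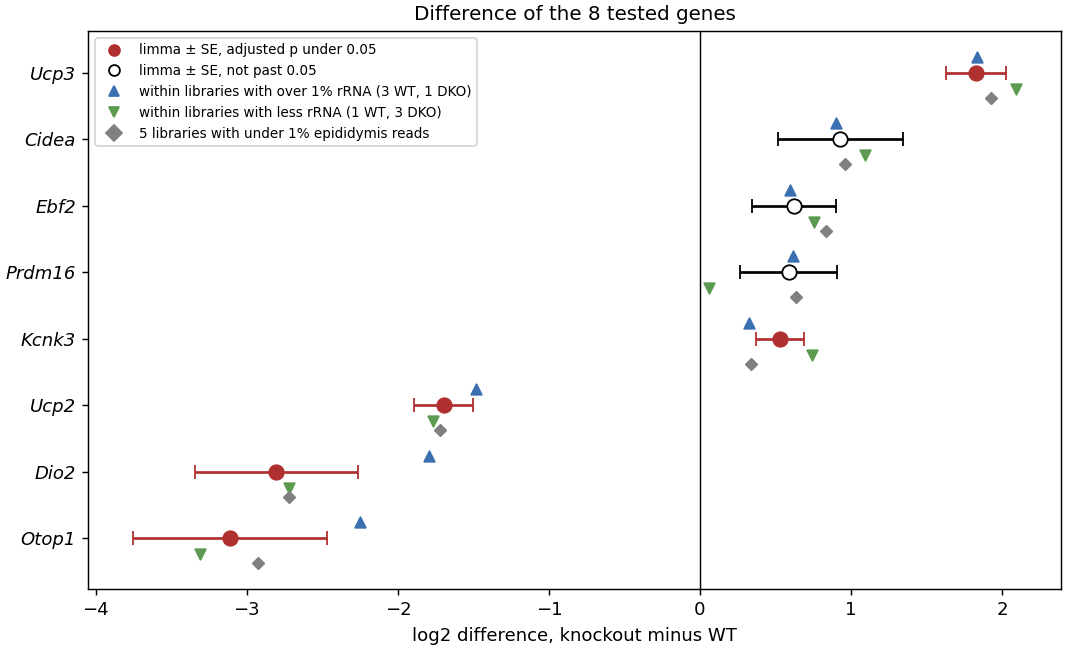
Log2 difference (x axis, knockout minus WT) of the 8 tested genes, as the limma value ± SE (circles, red where the adjusted p was under 0.05), within the 2 classes of ribosomal RNA (triangles) and among the 5 libraries low in epididymis RNA (diamonds). Ucp2, Dio2 and Otop1 stay under 0 and Ucp3 near 2 in each view, while Prdm16 reaches 0.06 in the class with less ribosomal RNA.

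The 2 regulators of beige identity did not pass the test. Prdm16, a zinc finger cofactor that drives brown and beige genes and restrains white and muscle ones, stood at 1.83, 3.04, 2.68 and 2.28 in WT and at 2.88, 3.70, 2.92 and 2.67 in knockout. The groups overlapped through WT replicates 2 and 3, and the difference was 0.59 ± 0.32 (SE; limma adjusted p = 0.171), with 0.62 and 0.06 within the classes. Its relatives Prdm1, a repressor active in immune cells, and Prdm9, known from meiosis, changed by −1.34 ± 0.26 and 0.86 ± 0.19 (adjusted p = 0.00364 and 0.00655). Prdm9 did not pass with quantile normalization (0.59, adjusted p = 0.0743) or among the 5 libraries low in epididymis RNA (0.88, adjusted p = 0.0588). Ebf2, a transcription factor that marks committed brown and beige precursors and opens sites for Pparg, stood at 3.63, 3.58, 4.24 and 3.46 in WT and at 4.37, 3.61, 4.85 and 4.56 in knockout. Knockout replicate 2 lay inside the WT range, and the difference was 0.62 ± 0.28 (SE; limma adjusted p = 0.107), with 0.60 and 0.76 within the classes. Ebf2 passed without knockout replicate 2 (0.87, adjusted p = 0.0157) and with array weights (0.82, adjusted p = 0.0279).

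Kcnk3, the two-pore potassium channel TASK-1 that is enriched in brown and beige fat cells and dampens their response to noradrenaline, was higher in the knockout by a small margin. It stood at 4.15, 4.01, 4.54 and 3.99 in WT and at 4.55, 4.77, 4.58 and 4.91 in knockout. The groups did not overlap, but WT replicate 3 lay just under the lowest knockout library. The change was 0.53 ± 0.16 (SE; limma adjusted p = 0.0254), a 1.44-fold higher level. The call ended without WT replicate 1, 2 or 4 or knockout replicate 2 or 4 (adjusted p = 0.0603, 0.061, 0.077, 0.0544 and 0.0651), with median centring (0.39, adjusted p = 0.0737) and among the 5 libraries low in epididymis RNA (0.34, adjusted p = 0.29). Within the classes it was 0.32 and 0.74. Smooth muscle and pericyte markers, of which 6 of 12 rose and 1 fell, took 0.0446% to 0.0559% of reads in WT and 0.0720% to 0.352% in knockout, and 10 of 10 endothelial markers rose. None of the markers in these lists was at 0 in any library, and their part in the rise of Kcnk3 was not tested. Its relatives Kcnk6 and Kcnk13 fell by 1.53 and 2.44 on the log2 scale (limma adjusted p = 0.000184 and 0.000131). Kcnk5 differed by 1.93 ± 0.63 (adjusted p = 0.0379) with overlapping groups, and lost its call without any single library other than WT replicate 2 and knockout replicate 1 (adjusted p of up to 0.0961).

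Cidea coats lipid droplets and is one of the transcripts most enriched in brown over white fat. It stood at 0.14, 0.61, 1.85 and 0.53 in WT and at 1.74, 1.21, 1.87 and 2.04 in knockout. WT replicate 3 lay among the knockout libraries, and the difference was 0.93 ± 0.41 (SE; limma adjusted p = 0.102), with 0.90 and 1.10 within the classes. Without WT replicate 3 it was 1.29 (adjusted p = 0.0221). The related droplet protein Cidec, typical of white fat cells, rose by 1.31 ± 0.20 (adjusted p = 0.00118) from a much higher read level, 9.84 ± 0.30 to 11.15 ± 0.24 log2 CPM (SD, n = 4). Cideb differed by 1.90 ± 0.73 without passing (adjusted p = 0.0667). It passed without knockout replicate 1 (2.34, adjusted p = 0.028) and without WT replicate 1 (2.41, adjusted p = 0.0317). Of the relatives listed for the members, 19 were tested, of which 4 rose and 3 fell with a median of 0.22. Over all tested genes 22.7% rose and 16.1% fell. Without WT replicate 4 or knockout replicate 2 or 3 the rises numbered 2. None of the 19 was a relative of Dio2, Otop1 or Ebf2. Ebf1, Ebf3 and Mecom are counted with the regulators below, and the other deiodinases with the thyroid hormone axis.

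Per kilobase of annotated exon, the order of the mean levels in WT was Ucp2 at 154 ± 19.3 CPM per kilobase (SD, n = 4), Kcnk3 at 4.57 ± 0.85, Ucp3 at 4.38 ± 1.05, Otop1 at 2.85 ± 1.17, Ebf2 at 1.95 ± 0.52, Cidea at 1.65 ± 1.03, Dio2 at 1.37 ± 0.31, Prdm16 at 0.609 ± 0.219 and Ucp1 at 0.36 ± 0.259. After Ucp2 each neighbour in this order overlapped the next over the 4 libraries except Dio2 and Prdm16. In the knockout the order was Ucp2 at 48.3 ± 12.5, Ucp3 at 15.5 ± 2.72, Kcnk3 at 6.57 ± 0.79, Ebf2 at 3.07 ± 1.00, Cidea at 2.97 ± 0.68, Prdm16 at 0.916 ± 0.326, Otop1 at 0.409 ± 0.314, and Ucp1 and Dio2 both at 0.236 (± 0.190 and ± 0.164). There the 3 leading genes were apart in every library, while Ebf2 overlapped Cidea, and Otop1, Ucp1 and Dio2 overlapped each other. The exons of Ucp2 together span 6989 bases and its longest transcript 3988, and with the latter as the length its WT level was 269 and its knockout level 84.6. With the same choice Ucp3 stood at 5.61 in WT, above Kcnk3 at 4.77, and at 19.8 in knockout.

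**Figure D3:**
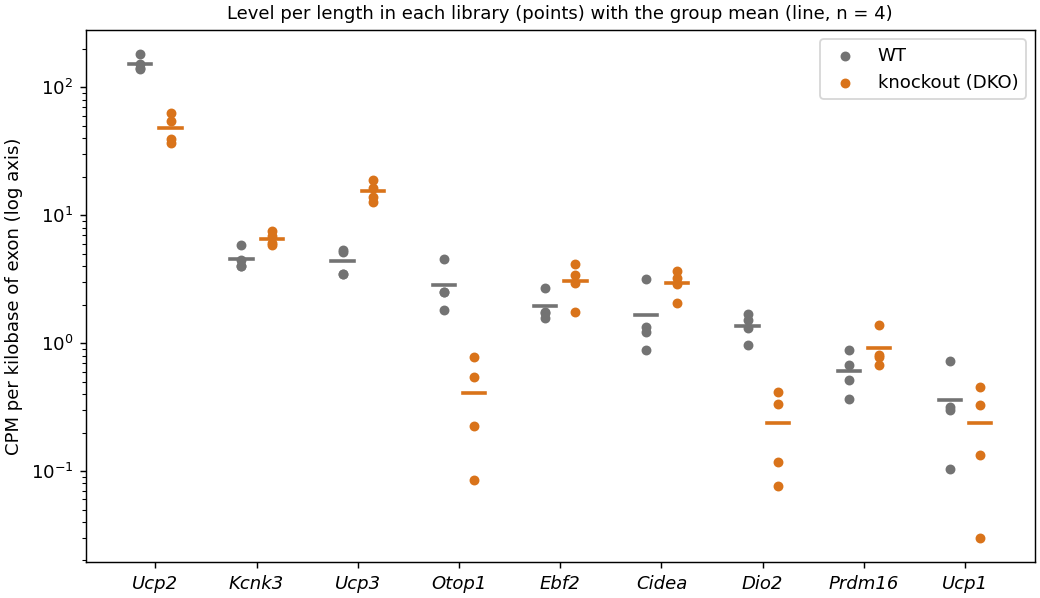
Level per kilobase of exon (y axis, CPM per kilobase, log axis) of the 9 genes, 1 point per library and a line at each group's mean, WT grey and knockout orange. Ucp2 leads in both groups, Ucp3 stands next to it in the knockout, and Otop1 and Dio2 drop towards the level of Ucp1.

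Some other genes followed the members closely over the 8 libraries, given as Pearson's r across the 8 samples with no test, since both groups differ and depth is shared. Each named gene is among the 3 highest of 13013 candidates, so a high r alone shows no particular link. Ucp3 was most like Gpam, the mitochondrial acyltransferase that starts triglyceride synthesis (r = 0.994), then Ntrk2 and Ganc (r = 0.993 and 0.992). Ucp2 was most like Lxn, Ckap4 and Wfs1 (r = 0.999, 0.999 and 0.998). For Dio2 the nearest were the semaphorin receptor Plxna1, the disintegrin metalloproteinase Adam12 and Kctd12 (each r = 0.995), and for Otop1 they were Pign, Dot1l and Glg1 (r = 0.992, 0.991 and 0.990).

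The counts that follow stand beside the 22.7% of all tested genes that were higher and the 16.1% that were lower, and counts near those shares say nothing of a list in particular. Of 22 brown fat effectors listed, 17 were tested, of which 4 rose and 2 fell with a median of 0.61, shares near those of all genes. The fatty acid receptor Ppara rose by 2.18 ± 0.33, its coactivator Ppargc1a, the main driver of mitochondrial biogenesis, by 1.99 ± 0.45, the droplet protein Plin5 by 1.14 ± 0.24 and the acyl-CoA synthetase Slc27a2 by 2.35 ± 0.81 (limma adjusted p = 0.00102, 0.00776, 0.00525 and 0.0463). Ppargc1a did not pass with median-ratio size factors (1.74, adjusted p = 0.0848). The call of Slc27a2 ended under many alternatives, among them without WT replicate 3 or 4 or knockout replicate 2, 3 or 4 (adjusted p of 0.0647 to 0.119). The kininogen Kng2 and the thioesterase Acot11 fell by 2.02 and 1.11 on the log2 scale (adjusted p = 0.00113 and 0.00133). Without knockout replicate 1 the rises numbered 7. The muscle-type cytochrome oxidase subunits Cox8b and Cox7a1, commonly used as brown fat markers, differed by 1.14 ± 0.54 and 0.51 ± 0.32 without passing (adjusted p = 0.124 and 0.226). Elovl3, a fatty acid elongase of cold-stimulated brown fat, lay under the filter at 0.96 ± 0.16 in WT and −2.05 ± 1.94 in knockout (SD, n = 4). These values rest on 7, 29, 15 and 10 reads in WT and on 2, 54, 1 and 3 in knockout. With no filter the difference of Elovl3 was −3.01 ± 0.87 and passed (SE; limma adjusted p = 0.0259), though its size is uncertain at so few reads. Cpt1b, Cpn2, Lhx8 and Zic1 had no row.

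Of 15 beige markers, 11 were tested, of which 2 rose and 3 fell (median 0.13). The glycerol channel Aqp7 and the homeobox gene Hoxc9 rose by 1.00 ± 0.20 and 1.33 ± 0.30 (limma adjusted p = 0.00458 and 0.00835). Hoxc9 did not pass with quantile normalization (0.95, adjusted p = 0.07003), thinned reads (1.03, adjusted p = 0.109) or median-ratio size factors (0.96, adjusted p = 0.0984). The interferon-inducible Epsti1, the co-stimulatory receptor Cd40 and the membrane protein Tmem26 fell by 1.07, 1.03 and 1.01 on the log2 scale (adjusted p = 0.00373, 0.0331 and 0.0392). Tbx1, a classical beige marker, lay under the filter at −1.71 ± 1.28 in WT and 0.15 ± 0.62 in knockout (SD, n = 4), with no overlap, and with no filter its difference did not pass (1.86, adjusted p = 0.0675). The falls numbered 1 without any 1 of WT replicates 1, 2 and 3 or knockout replicates 2, 3 and 4, and also among the 5 libraries low in epididymis RNA. Cd40 had overlapping groups, at −0.10 and −1.46 within the classes.

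Of the regulators of the brown and beige programme, 12 of 26 tested genes rose and 2 fell (median 0.51). The retinoid receptor Rxra, the corepressor Nrip1, the zinc finger factor Zbtb7b and the Ebf family member Ebf3 rose by 1.00 ± 0.11, 1.38 ± 0.17, 0.74 ± 0.09 and 1.16 ± 0.15 (limma adjusted p = 0.00018, 0.000405, 0.000405 and 0.000508). Ebf1 rose by 1.32 ± 0.22, the fat cell master regulator Pparg by 1.43 ± 0.19 and the Prdm16 relative Mecom by 0.96 ± 0.23 (adjusted p = 0.00153, 0.000593 and 0.0108). Among the 5 libraries low in epididymis RNA, Mecom did not pass (0.85, adjusted p = 0.0731). Several of these genes serve white as well as beige fat cells, and Nrip1 is known to repress Ucp1. The 2 that fell were Foxp1 and Cebpb, by 0.69 and 0.45 on the log2 scale (adjusted p = 0.0145 and 0.0486). Without WT replicate 4 neither passed (adjusted p = 0.0506 and 0.11), and Cebpb also did not pass without WT replicate 1 or 2 or knockout replicate 1, 2 or 4 (adjusted p of 0.0744 to 0.118).

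Upstream, the receptor and cyclic AMP steps had 11 of 23 genes higher and 2 lower (median 0.40). Adrb3, the beta-3 receptor of fat cells and also one of the fat cell markers, rose from 4.72 ± 0.71 to 8.93 ± 0.82 (SD, n = 4), a change of 4.21 ± 0.45 (limma adjusted p = 0.00018). Adrb1 rose by 2.69 ± 0.51 (adjusted p = 0.00341). The adenylyl cyclase Adcy6 rose by 1.35 ± 0.15, whereas Adcy3, another cyclase, and Rgs2, a brake on G protein signalling, fell by 1.48 and 1.84 on the log2 scale (adjusted p = 0.000222, 0.000144 and 0.000214). With median centring the counts were 7 higher and 4 lower.

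Around Dio2, 6 of 9 tested genes of the thyroid hormone axis rose and 3 did not pass (median 0.52). With median centring 3 rose. The receptors Thra and Thrb rose by 0.99 ± 0.20 and 1.09 ± 0.22 and the corepressor Ncor1 by 0.52 ± 0.12, which ended with median centring (0.37, adjusted p = 0.0706). Thrsp, a lipogenic gene that thyroid hormone induces, rose by 2.55 ± 0.22 (limma adjusted p = 6.75e-05). Dio1, the other activating deiodinase, and Dio3, the inactivating one, lay under the filter. Dio1 stood at −1.47 ± 1.47 in WT and 0.47 ± 0.60 in knockout (SD, n = 4) with no overlap, and with no filter its difference of 1.95 did not pass (adjusted p = 0.0707). Dio3 overlapped, with a difference of 0.19 (adjusted p = 0.811 with no filter). Without knockout replicate 2, and among the 5 libraries low in epididymis RNA, 1 gene of the list was lower.

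Among genes of heat production that does not need Ucp1, 6 of 16 tested rose and 3 fell (median 0.73). The 3 that fell take part in creatine metabolism. The creatine transporter Slc6a8, the glycine amidinotransferase Gatm that starts creatine synthesis and the brain-type creatine kinase Ckb changed by −1.93 ± 0.16, −2.23 ± 0.24 and −1.5 ± 0.27 (limma adjusted p = 5.91e-05, 0.00018 and 0.00238). Other creatine genes of the list had higher means in the knockout and were not called. Gamt, which completes creatine synthesis, and the phosphatase Alpl differed by 0.87 ± 0.38 and 1.13 ± 1.09 without passing (adjusted p = 0.099 and 0.435). Gamt passed without WT replicate 2 (1.12, adjusted p = 0.0406) and among the 5 libraries low in epididymis RNA (0.69, adjusted p = 0.0311). Gamt and Alpl were highest in replicate 2 of each group, where both libraries held over 1% epididymis reads. Alpl stood there at 5.37 in WT and 6.76 in knockout, against at most 2.02 and 3.67 elsewhere. Gamt stood there at 5.10 and 6.35, against at most 4.23 and 4.96. Alpl differed by 0.66 among the 5 libraries low in epididymis RNA and by −0.24 with the ribosomal RNA class as covariate. The part of epididymis RNA in these means was not tested. The mitochondrial creatine kinase Ckmt1 lay under the filter, at −1.01 ± 0.67 in WT and −0.088 ± 0.52 in knockout (SD, n = 4). The lipid cycle genes Pnpla2, the main triglyceride lipase and also a fat cell marker, and Gpam rose by 2.02 ± 0.22 and 1.36 ± 0.15 (adjusted p = 0.000195 and 0.000205).

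Among secreted signals of thermogenic fat 5 of 13 tested genes rose and 4 fell (median 0.98, but 0.59 and −0.28 within the classes). The angiogenic factor Vegfa and the brown fat neuregulin Nrg4 rose by 1.79 ± 0.18 and 2.15 ± 0.25. The cytokine-like Metrnl, the chemokine Cxcl14, the stress hormone Gdf15 and the guidance ligand Slit2 fell by 1.91, 1.99, 2.94 and 0.71 on the log2 scale (limma adjusted p = 7.4e-05, 0.000139, 0.000189 and 0.0206). Slit2 did not pass without WT replicate 1 or 2 (adjusted p = 0.0611 and 0.0508). Without WT replicate 1 or 4 or knockout replicate 3 the rises numbered 3, and without knockout replicate 4, or among the 5 libraries low in epididymis RNA, 2.

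**Figure D4:**
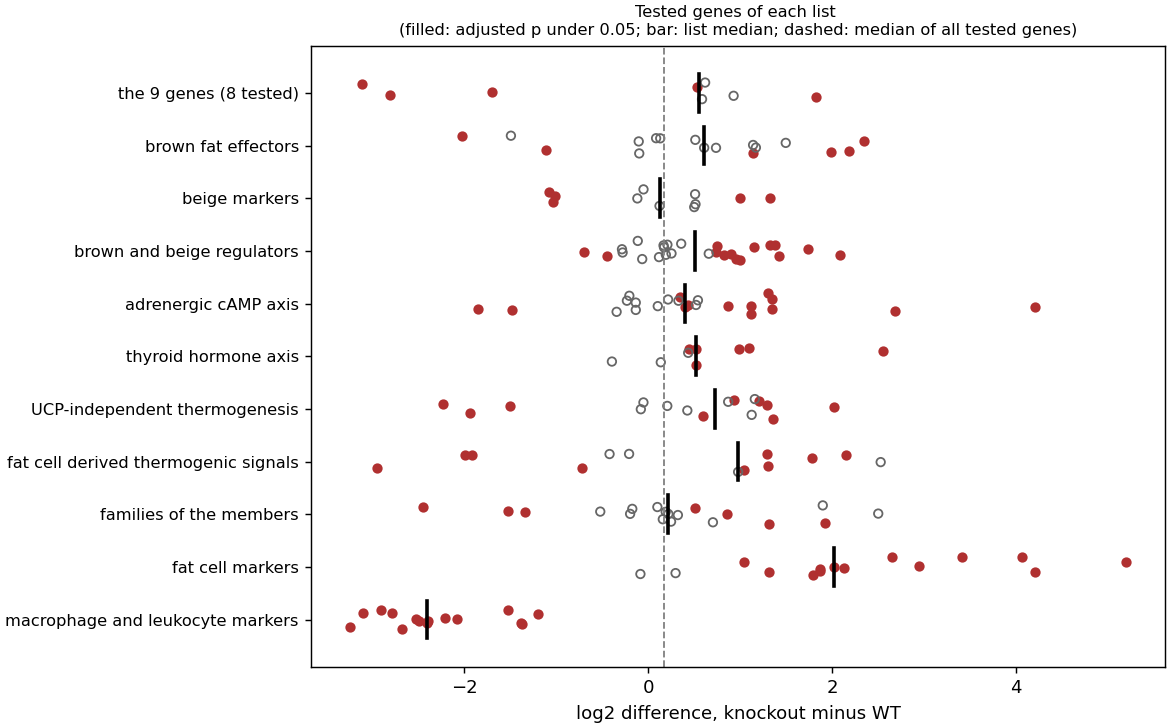
Log2 difference (x axis, knockout minus WT) of each tested gene in the lists on the y axis, filled red where the limma adjusted p was under 0.05, with the list median (black bar) and the median of all tested genes (dashed, 0.18). The thermogenic lists hold genes on both sides of 0. Their medians lie between those of the fat cell markers (2.02) and of the macrophage and leukocyte markers (−2.40). Single genes lie beyond both, such as Adrb3 at 4.21 and Otop1 at −3.11.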

How the data were processed

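The authors deposited voom log2 CPM values of 16505 genes in 8 samples. Trimmomatic, TopHat2, featureCounts, limma and build mm9 are named per the submitters' processing notes, with versions, settings and the strand setting of counting not given in the sources used here. Per the labels' protocols, libraries were stranded, from polyA RNA, and read from a single end. Whole reads were recovered from the steps of low values (100% within 0.01 read).

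The 9 genes were matched by symbol. The fit was limma 3.58.1 in R 4.3.3 (lmFit, then eBayes with a trend, with group as the only term), two-sided, over the 13797 genes whose mean reached 0 log2 CPM, with Benjamini-Hochberg adjustment and a threshold of 0.05. It was tested on simulated reads, with changes placed in randomly picked genes and the same spread for all genes. The simulation held no shift of cell types, ribosomal RNA or epididymis RNA between libraries, so it does not check the calls made here. The members, lists, tests and alternatives were chosen with earlier results of these data known. Named are the members, up to 4 genes of each list with the smallest p, relatives of members, and the 3 genes most like a member. Ppargc1a, Slc27a2, Elovl3, Cox8b, Cox7a1, Tbx1, Tmem26, Ckb, Foxp1, Cebpb, Nrg4, Slit2, Slc25a10, Slc25a11, Prdm9, Gamt, Alpl, Ckmt1, Acta1 and Actn3 were chosen after their values were seen. Exon lengths and UTRs came from GENCODE M21 (GRCm38), with a UTR for 93.3% of tested genes, and miRNAs and promoters from RefSeq. Plots used matplotlib 3.10.9. One result is not reported here.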

Additional observations from a re-analysis of the deposited data

Results flagged for a closer look

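Of 134 groups of 4 libraries examined for 67 genes, 7 had 1 library far from the other 3, where chance sets about 1 in 20 such groups apart. All values are log2 CPM. Ppargc1a stood at 0.15 in WT replicate 4, from 6 reads, against 1.49 to 1.59 in the other WT libraries. Slc25a14 stood at 0.56 in knockout replicate 1, against 2.16 to 2.39 in the other knockout libraries. Cox7a1 stood at 2.38 in knockout replicate 1, from 19 reads, against 1.44 to 1.51. Adcy6 stood at 8.05 in knockout replicate 3, against 7.68 to 7.73. Cebpb stood at 4.44 in knockout replicate 3, against 3.97 to 4.04. Gamt stood at 6.35 in knockout replicate 2, against 4.74 to 4.96, and Alpl at 5.37 in WT replicate 2, against 1.79 to 2.02 in the other WT libraries.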

How the results depend on the processing

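Ucp2, Ucp3, Dio2 and Otop1 kept their direction and their call under each alternative that tested them, and a filter at 2 log2 CPM left Dio2 and Otop1 untested, so that 1 member was called lower there in place of 3. The members called higher numbered 1 with median centring, with quantile normalization, with the ribosomal RNA class as covariate and without the libraries with over 1% epididymis reads. Leaving out 1 library gave 1 to 3 higher and 3 lower. The labels do not say whether replicate numbers pair the samples. Deviations from the group means of same-numbered samples correlated at 0.36, 0.79, 0.24 and −0.36 for replicates 1 to 4. In replicate 2 both libraries held over 1% epididymis reads, so these correlations cannot show whether samples were paired. With the replicate block 3232 genes were called higher and 2136 lower, against 3137 and 2216, Kcnk3 did not pass (adjusted p = 0.0535) and Ebf2, Gamt and Alpl passed (adjusted p = 0.0481, 0.00657 and 0.0185). The median of all tested genes was 0.18, and with median centring, quantile normalization and median-ratio size factors 46.4%, 48.2% and 44.9% of calls were higher, against 58.6%. The difference of Slc25a14 turned to 0.053 with array weights and 0.10 with thinned reads and ran from −0.38 to 0.23 with 1 library left out. With the ribosomal RNA class as covariate Alpl turned to −0.24 and Slc25a11 to −0.11. Brown fat effectors called higher numbered 8 with array weights. The cause was not tested in any of these cases. Ucp1, Elovl3 and the knockout values of Dio2 and Otop1 rest on few reads.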
